A study of Papio anubis and Macaca mulatta with 6 samples.

Results

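Barcodes with RNA of several smooth muscle contractile genes were examined in single-cell libraries of prepubertal olive baboon and rhesus macaque testis, because they were put forward as the peritubular myoid and other contractile cells of the organ. A barcode is the tag shared by all RNA caught in a droplet, and a UMI (unique molecular identifier) stands for 1 RNA molecule counted. A barcode was taken where it had at least 1000 UMIs, at least 1 UMI of 3 or more of the 8 genes ACTA2, MYH11, TAGLN, CNN1, ACTG2, DES, MYLK and LMOD1, and a UMI of fewer than 2 of the 6 pericyte genes RGS5, NOTCH3, HIGD1B, KCNJ8, ABCC9 and CSPG4. The rule took 1469 of the 44341 barcodes of at least 1000 UMIs. The barcodes were thus selected on the measured UMIs of these 14 genes. For that reason the genes of the rule are described below with no test, and tests were run on other genes. The libraries shared few barcode sequences, at most 136 between any pair (1A and rhesus 1, 1.49% of the smaller), and 67 between 2A and 2B.

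The 6 libraries came from 2 baboons and 2 rhesus monkeys, all untreated, whose testes were obtained at necropsy. Libraries 1A and 1B were from baboon 1, libraries 2A and 2B from rhesus 2, and baboon 2 and rhesus 1 had 1 library each. The design text on GEO gives ages of 15 and 20 months for the baboons and newborn and 26 months for the rhesus monkeys, and ties no age to an animal. The published account assigns the ages the other way round between baboon and rhesus, so age was not used here and cannot be told apart from the animal. Cells were freed in 2 enzyme steps, with a wash between them that was meant to take away interstitial cells. Collagenase was used before this wash, and trypsin with DNase after it. These steps bear on how many cells of the tubule wall could remain. The baboon 2 library was made with a later version of the 10x Genomics chemistry than the other 5, so that chemistry and animal cannot be told apart either. The libraries held 31074298 UMIs in 1A, 16875294 in 1B, 49803025 in baboon 2, 38106092 in rhesus 1, 19675453 in 2A and 18806225 in 2B, over 34178 baboon or 21356 rhesus genes.

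Peritubular myoid cells are flat, smooth muscle-like cells that wrap the seminiferous tubule, lay down its basement membrane together with Sertoli cells and squeeze the tubule content along in the adult. Vascular smooth muscle cells and pericytes, the mural cells of blood vessels, use much the same contractile genes: ACTA2 and ACTG2 encode smooth muscle actins, MYH11 the smooth muscle myosin heavy chain, MYLK the kinase that switches that myosin on, TAGLN and CNN1 proteins bound to actin filaments, DES an intermediate filament and LMOD1 a nucleator of actin filaments. Transcription of many of these genes is driven by SRF with its cofactor myocardin (MYOCD) at CArG boxes. The genes of the rule therefore cannot by themselves tell myoid cells from vascular smooth muscle cells.

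Contractile-gene barcodes were rare in baboon 1 and more frequent in the other animals, but the shares moved with depth. They made up 45 of 9125 barcodes in 1A (0.493%, exact 95% Clopper-Pearson interval 0.360 to 0.659), 29 of 5021 in 1B (0.578%, 0.387 to 0.828) and 370 of 7547 in baboon 2 (4.90%, 4.43 to 5.41). In rhesus 1 they were 625 of 10403 (6.01%, 5.56 to 6.48), in 2A 192 of 6348 (3.02%, 2.62 to 3.48) and in 2B 208 of 5897 (3.53%, 3.07 to 4.03). These intervals cover counting error only. The intervals of 1A and 1B overlapped, as did those of 2A and 2B, whereas the interval of baboon 2 overlapped neither library of baboon 1. When exactly 1000 UMIs were drawn at random from every barcode before the rule was applied, the shares fell to 0.263% (24 barcodes) in 1A, 0.179% (9) in 1B, 0.278% (21) in baboon 2, 1.63% (170) in rhesus 1, 1.45% (92) in 2A and 1.71% (101) in 2B. At equal depth the intervals of the 2 baboons overlapped (0.233%, 0.161 to 0.327, in baboon 1 against 0.172 to 0.425 in baboon 2), and all 3 rhesus libraries stood above all 3 baboon libraries.

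The levels of the 8 contractile genes divided the libraries. Levels are given as CPM, the UMIs of a gene summed over the barcodes of a class in a library and divided by all UMIs of those barcodes, scaled so that 1% of the UMIs is 10000 CPM. ACTA2 stood at 653 CPM in the contractile-gene barcodes of 1A, 530 in 1B, 7.18 in baboon 2, 565 in rhesus 1, 2052 in 2A and 2376 in 2B, beside 8.48, 5.40, 6.95, 24.8, 23.5 and 21.5 CPM in all other barcodes. In baboon 2 the gene that defines smooth muscle actin was therefore at the level of the remaining barcodes and of barcodes under 100 UMIs (6.89 CPM), which hold mostly free RNA. MYH11 was lowest in baboon 2 as well, with 268 CPM in 1A, 196 in 1B, 13.4 in baboon 2, 399 in rhesus 1, 717 in 2A and 752 in 2B. TAGLN was at 848, 617, 92.5, 442, 1959 and 2138 CPM in that order, and CNN1 at 81.6, 58.0, 4.83, 79.4, 93.3 and 136 CPM. ACTG2 reached 117 and 143 CPM in the 2 libraries of rhesus 2 but 0.866 CPM in baboon 2, and DES was at 0 in 1A and 1B, 0.248 CPM in baboon 2, 4.91 in rhesus 1, 43.0 in 2A and 34.9 in 2B. MYLK and LMOD1 were the only 2 of the 8 without such a gap: MYLK stood between 190 and 427 CPM in the 6 libraries, over 108 to 143 CPM in other barcodes, and LMOD1 between 123 and 209 CPM over 23.5 to 74.1 CPM.

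**Figure D1:**
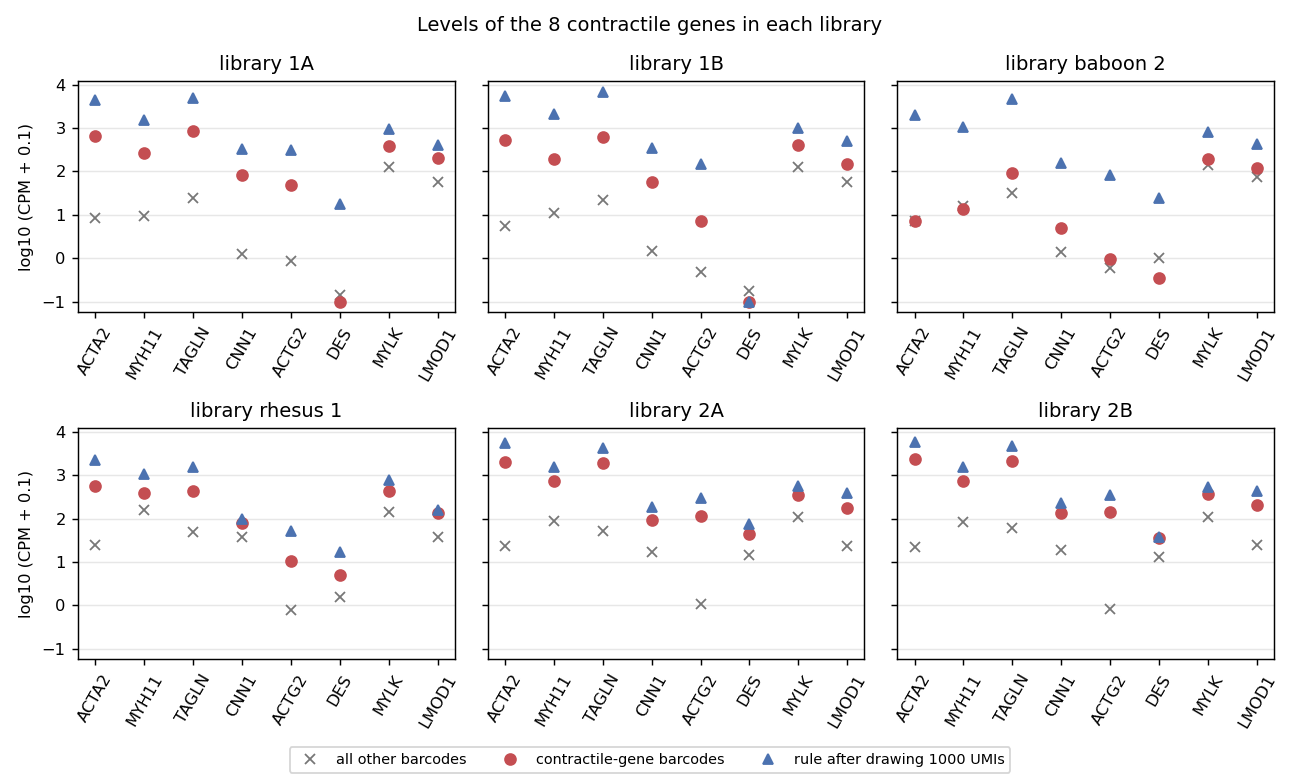
Levels of the 8 contractile genes of the rule (log10 of CPM + 0.1) in each of the 6 libraries, for contractile-gene barcodes, all other barcodes and the barcodes that met the rule on 1000 drawn UMIs. In baboon 2, ACTA2 of the contractile-gene barcodes (7.18 CPM) sits on that of all other barcodes (6.95 CPM).

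The share of contractile-gene barcodes with at least 1 UMI of ACTA2 was 31.1% in 1A, 27.6% in 1B, 4.32% in baboon 2, 54.6% in rhesus 1, 76.6% in 2A and 68.8% in 2B. MYLK, by contrast, had a UMI in 97.8%, 100%, 96.8%, 80.2%, 64.1% and 65.4% of them. A single combination, TAGLN with MYLK and LMOD1 and none of the other 5, made up 253 of the 370 barcodes of baboon 2 (68.4%) and 18 of the 45 of 1A (40%), while in 2A and 2B the most frequent was ACTA2 with MYH11 and TAGLN (31 and 35 barcodes, 16.1% and 16.8%). MYH11 had a UMI in 21.4% of the barcodes of baboon 2. Most barcodes of baboon 2 thus met the rule without ACTA2 or MYH11, the actin and myosin that mark contractile cells. For that reason the barcodes of the rule are called contractile-gene barcodes here, not myoid cells.

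Promoters are shown for 2 genes of the rule, both smooth muscle actins, whose RNA was high in the contractile-gene barcodes of rhesus 2. Each run is the 250 bases before the RefSeq start of the gene on the Mmul_10 rhesus assembly, 5′ to 3′ on the strand of the gene, with any CArG box (CC, then 6 bases that are each A or T, then GG, which reads as the same motif on the other strand) in capitals.

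ACTG2, chr13:34939372-34939621, minus strand: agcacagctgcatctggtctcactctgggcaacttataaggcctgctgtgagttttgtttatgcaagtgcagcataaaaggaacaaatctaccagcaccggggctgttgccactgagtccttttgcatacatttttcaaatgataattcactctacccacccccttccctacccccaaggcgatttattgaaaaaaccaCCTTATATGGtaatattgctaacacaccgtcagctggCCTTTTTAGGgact

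ACTA2, chr9:89217326-89217575, minus strand: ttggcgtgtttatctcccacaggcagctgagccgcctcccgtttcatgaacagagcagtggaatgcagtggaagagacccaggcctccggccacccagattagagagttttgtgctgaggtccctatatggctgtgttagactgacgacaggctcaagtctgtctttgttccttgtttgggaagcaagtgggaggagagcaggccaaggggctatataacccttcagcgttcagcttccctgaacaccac

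ACTG2 had 2 boxes, the nearer 14 bases before its start, and ACTA2 had none in this window. Of the 43 other contractile genes with a RefSeq promoter 5 held a box, namely MYL9 (36 bases before the start), CALD1 (81), FLNA (95), VCL (222) and FERMT2 (244). Over the promoters of all 20774 protein-coding genes 218 (1.05%) held one, and none of the 6 pericyte genes of the rule did. A match is only a run of letters, and boxes that lie farther from the start or inside the gene were not searched. Nor were runs that miss the strict motif by a letter, so that this search does not show that ACTA2, whose proximal promoter is known for CArG elements, lacks them.

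Contractile-gene barcodes were deeper than the rest in every library, and by far the most in baboon 2. Their median was 3772 UMIs in 1A, 3623 in 1B, 18736 in baboon 2, 2974 in rhesus 1, 2179 in 2A and 2102 in 2B, against 1930, 2020.5, 2816, 1609, 1616 and 1600 UMIs for all other barcodes. In baboon 2, 272 of the 370 (73.5%) had over 10000 UMIs, compared with 11.9% of its other barcodes. A rule that asks for UMIs of 3 genes is met more easily by deep barcodes, so the selection itself favours this direction. Among baboon 2 barcodes with fewer than 2 pericyte genes, the median was 1987 UMIs with 0 contractile genes, 3274 with 1, 8151 with 2 and 18782.5 with 3. On 1000 drawn UMIs the rule kept 12 of the 370 barcodes of baboon 2 (3.24%), against 35.6% in 1A, 20.7% in 1B, 27.2% in rhesus 1, 46.9% in 2A and 47.6% in 2B. Droplets that caught 2 cells were not removed, and their part in these barcodes was not tested.

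Markers of Sertoli cells, the nurse cells inside the tubule, were as abundant in many contractile-gene barcodes as in the rest of the library. Of 15 listed Sertoli genes, 13 were in the baboon table and 14 in the rhesus table. Their summed level was 8336 CPM in 1A, 7394 in 1B and 9149 in baboon 2, led by AMH, the anti-Müllerian hormone of immature Sertoli cells, at 6345, 5413 and 7403 CPM. In rhesus the sum was 7764 CPM in rhesus 1, 3663 in 2A and 4511 in 2B. At least 3 Sertoli genes had a UMI in 60%, 51.7%, 90.0%, 62.9%, 25.5% and 28.8% of contractile-gene barcodes (1A, 1B, baboon 2, rhesus 1, 2A, 2B), compared with 71.3%, 72.1%, 50.3%, 62.6%, 37.3% and 38.6% of other barcodes. On 1000 drawn UMIs the shares were 37.8%, 44.8%, 39.2%, 39.5%, 15.6% and 16.3% against 45.4%, 45.1%, 23.0%, 52.5%, 30.8% and 32.3%, so that baboon 2 was the only library in which contractile-gene barcodes carried the Sertoli genes more often than the rest. Leydig genes were also frequent in rhesus 1, where 17.8% of contractile-gene barcodes had 3 or more, against 4.07% of the rest (3.68% against 1.33% on 1000 drawn UMIs). In that library INSL3, the insulin-like hormone of Leydig cells, reached 5540 CPM in contractile-gene barcodes. In baboon 2 Leydig genes reached 3 in 11.4% of contractile-gene barcodes against 1.57% of the rest, and germ cell genes in 19.5% against 2.61%, but on 1000 drawn UMIs in 0% against 0.0975% and 0.307%. Endothelial markers were nearly absent from these barcodes in baboon 2, with 6.56 CPM summed over 10 genes. Over the Sertoli, endothelial, Leydig, germ, macrophage and lymphoid lists, 27 of 45 contractile-gene barcodes of 1A (60%), 16 of 29 of 1B (55.2%), 333 of 370 of baboon 2 (90.0%) and 417 of 625 of rhesus 1 (66.7%) had 3 or more genes of at least 1 of these lists, here called genes of another cell type, while 52 of 192 in 2A (27.1%) and 62 of 208 in 2B (29.8%) did. The share of the rest was not taken over these lists together. In 1A and 1B the Sertoli list alone reached 71.3% and 72.1% of the rest, above the shares of contractile-gene barcodes over all these lists. Stroma genes were not among these lists, and 3 or more of the 6 had a UMI in 8.89%, 13.8%, 18.6%, 36%, 24.0% and 26.0% of contractile-gene barcodes (1A, 1B, baboon 2, rhesus 1, 2A, 2B), against 4.06%, 4.41%, 30.0%, 24.9%, 19.7% and 19.5% of the rest. On 1000 drawn UMIs the shares were 2.22%, 6.90%, 5.68%, 13.8%, 8.85% and 12.5% against 2.78%, 2.98%, 17.2%, 15.3%, 10.9% and 11.1%. The part of mixed droplets and of free RNA in this was not tested.

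Within a library, barcodes with more of the 8 genes looked different from those that just met the rule of 3. In 2B, the 118 barcodes with exactly 3 genes summed to 2149 CPM of the rule genes, the 55 with 4 genes to 5452 and the 35 with 5 or more to 24889. Contractile genes that the rule did not use rose over the same steps from 5976 to 7891 and 25373 CPM, and RERGL, a small GTPase-like gene known from vascular smooth muscle, from 23.5 to 143 and 2256 CPM. The summed mural genes of blood vessels climbed as well, from 545 to 659 and 4206 CPM in 2B and from 401 to 787 and 3088 CPM in 2A, and in 1A from 164 CPM with 3 genes to 10069 with 5 or more. Sertoli genes went the other way, from 6451 to 2100 and 790 CPM. In 2A the steps were 5550, 9389 and 15370 CPM for other contractile genes and 4648, 3281 and 1117 CPM for Sertoli genes. Baboon 1 had few such barcodes but the same order: in 1A the 34 barcodes with 3 genes had 5494 CPM of other contractile genes and 9329 CPM of Sertoli genes, and the 11 with 5 or more had 29087 and 887 CPM. In rhesus 1 and baboon 2 the contrast was weaker. Sertoli genes were at 7819, 7915 and 6876 CPM over 437, 142 and 46 barcodes of rhesus 1, and at 9175, 9139 and 7133 CPM over 330, 32 and 8 barcodes of baboon 2. The steps are cut from the genes of the rule, so they describe the barcodes and were not tested.

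**Figure D2:**
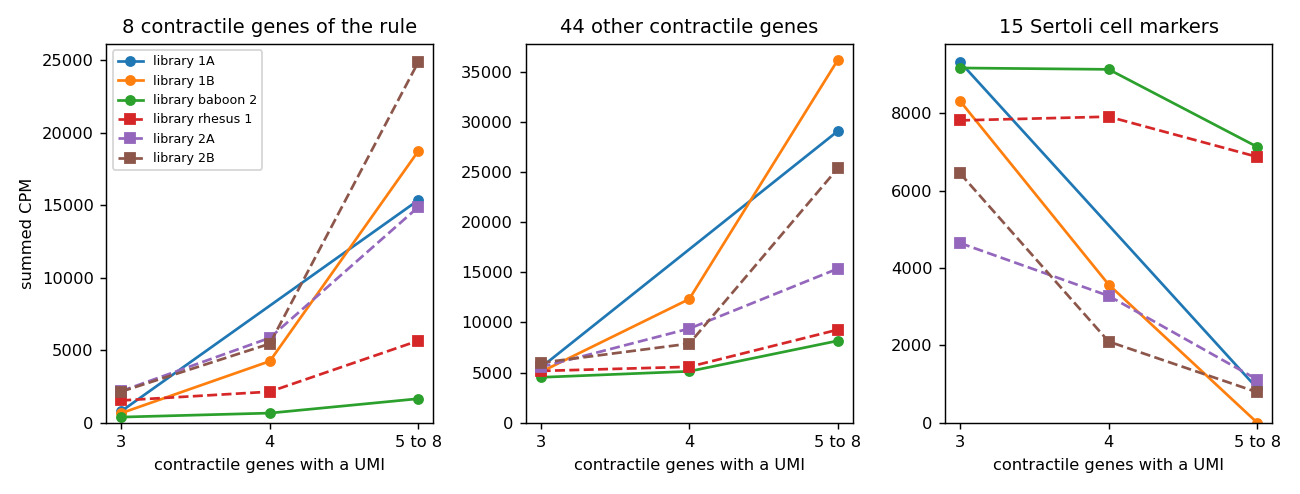
Summed CPM (linear axes from 0) of the rule genes, other contractile genes and Sertoli genes by the number of the 8 contractile genes with a UMI, in each library (1A had no barcode with 4). Sertoli genes drop as contractile genes climb in 1A, 1B, 2A and 2B, whereas in baboon 2 they stay between 7133 and 9175 CPM.

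Just outside the rule lay barcodes with exactly 2 contractile genes: 418 in 1A, 271 in 1B, 1214 in baboon 2, 1266 in rhesus 1, 505 in 2A and 482 in 2B. Their ACTA2 level was 1.61 CPM in 1A, 5.32 in 1B, 0.632 in baboon 2, 91.0 in rhesus 1, 120 in 2A and 111 in 2B. Barcodes with exactly 3 were at 51.4 CPM in 1A, 8.61 in 1B, 0.825 in baboon 2, 314 in rhesus 1, 478 in 2A and 460 in 2B. Barcodes that had 3 or more contractile genes but were set aside for 2 or more pericyte genes numbered 16 in 1A, 8 in 1B, 27 in baboon 2, 0 in rhesus 1, 6 in 2A and 5 in 2B. In baboon 2 those 27 had an ACTA2 level of 1388 CPM and a TAGLN level of 3342 CPM, far above the 370 that the rule took. Their ACTA2 level was also above that of the contractile-gene barcodes in 1A (2861 CPM) and 1B (2194 CPM) but below it in 2A (1675 CPM) and 2B (1794 CPM).

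The barcodes that met the rule on 1000 drawn UMIs were looked at as a depth-matched set, an alternative planned with the rule's dependence on depth in mind. Only the choice of barcodes used the drawn UMIs, and levels and tests used all UMIs of the chosen barcodes. Their median was 2077.5 UMIs in rhesus 1 and 3458 in baboon 2. It was 1618 and 4215 in barcodes outside the pericyte and stroma groups described below. Barcodes that met the rule at full depth but not on the draw were then counted among all other barcodes, some of them in the stroma group. The draw kept 12 of 370 barcodes in baboon 2 and 170 of 625 in rhesus 1, so most full-rule barcodes of these animals joined the comparison group. In the depth-matched set ACTA2 stood at 4353 CPM in 1A, 5468 in 1B, 2025 in baboon 2, 2304 in rhesus 1, 5427 in 2A and 5892 in 2B. MYH11 was between 1049 and 2157 CPM and TAGLN between 1536 and 6973 CPM in the 6 libraries. The set is small in baboon (54 barcodes) and not free of pericyte genes, since 20 of the 54 had 2 or more of them at full depth: RGS5, the marker of pericytes, was at 590 CPM in 1A, 903 in 1B and 518 in baboon 2, but 14.4 in rhesus 1, 126 in 2A and 181 in 2B. NOTCH3 was at 607, 251 and 422 CPM in the baboon libraries and between 0 and 5.27 CPM in the rhesus libraries. By the full rule, all other barcodes had 5.79, 6.03 and 9.49 CPM of NOTCH3 in 1A, 1B and baboon 2. In rhesus 1, 2A and 2B they had only 0.210, 1.06 and 0.449 CPM. Low NOTCH3 in the rhesus set therefore does not show that it held fewer pericytes.

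Genes outside the rule were compared between contractile-gene barcodes and all other barcodes of at least 1000 UMIs in UMI counts summed per animal, 2 sums a class in each species, with edgeR's quasi-likelihood test and Benjamini-Hochberg adjustment over all genes tested. Sums from the same animal deviated together, so the fit with the animal as a block is given beside the main results and those on drawn UMIs. That fit leaves 1 residual degree of freedom per gene and leans on the spread shared over genes. Other settings were run without the block only. In baboon, 1 of 16018 genes passed an adjusted p of 0.05 (0.00624%). It was HBB, the beta chain of haemoglobin, with 0 and 3 UMIs in contractile-gene barcodes of baboon 1 and baboon 2 against 66.6 and 98.1 CPM in the rest (adjusted p = 0.0144). Of the genes tested, 434 had an unadjusted p under 0.05, and DESeq2 called 3. Without the barcodes that held 3 or more genes of another cell type, 129 genes passed, 86 higher and 43 lower. This filter removed contractile-gene barcodes only, by UMIs of those cell types' genes, and so bears on lower levels of such genes by construction.

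No contractile gene outside the rule passed that test in baboon, and the 2 animals differed widely. TPM1, a tropomyosin of the actin filament, was at 218 CPM in baboon 1 and 22 in baboon 2, over 22.9 and 25.2 CPM in the rest (log2 fold change 2.08 ± 0.85 SE). Baboon 2 lay at the level of its other barcodes and only baboon 1 above. TPM2, the other muscle tropomyosin, was at 656 and 45.1 CPM against 38.3 and 86.8 CPM, so that the 2 animals pointed in opposite directions. CSRP1, a LIM protein of actin bundles, was higher in both animals, in baboon 2 only slightly, at 154 and 73.9 CPM against 49.9 and 65.6 CPM (0.85 ± 0.37). MYL9, the regulatory light chain of smooth muscle myosin, was at 921 and 463 CPM against 438 and 378 CPM (0.68 ± 0.39). Of 40 tested genes of a 44-gene list of other contractile genes, 34 had a fold change above 0 with a median of 0.46, where all genes tested had -0.05. With the animal as a block 206 genes passed (1.29%), 9 higher (0.0562% of those tested) and 197 lower (1.23%). The higher ones included 3 contractile genes, CSRP1 (0.76, adjusted p = 0.0428), TPM1 (1.38, 6.55e-06) and TPM2 (1.48, 5.87e-05), and the mural genes RERGL (3.37, 0.00107) and ADIRF (1.13, 0.0049), both led by baboon 1. RERGL, for example, was at 120 CPM in baboon 1 and 1.86 in baboon 2 against 2.11 and 1.13 CPM. TPM1 and TPM2 of baboon 2 were not above its other barcodes, so their blocked calls do not show a rise in both animals.

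Matrix and stroma genes were among those lower in the blocked baboon fit. Of 21 tested interstitial matrix genes 9 were lower, among them COL1A1, COL1A2, COL3A1 and FN1, and so were 4 of 6 stroma genes (C7, DCN, IGF1 and TCF21) and 6 of 19 niche factors, including RSPO3, which boosts Wnt signalling, and the growth factor IGF2. Both lists turned in the depth-matched set described next, from an unblocked median of -0.86 to 0.64 for interstitial matrix (0.71 without 1 gene that had no UMI in the set) and from -0.45 to 0.25 for niche factors (0.80 without 3 such genes), where AEBP1, BGN and IGFBP7 rose and none fell in the unblocked fit. MMP2, a gelatinase of stroma, was at 41.9 and 36.4 CPM against 57.7 and 83.1 CPM (block -0.98, adjusted p = 0.00604). MEST, an imprinted gene of fetal mesenchyme, was at 53.0 and 27.5 CPM against 65.5 and 63.1 CPM (block -0.91, adjusted p = 0.0141). Without the barcodes that held 3 or more genes of another cell type, both turned to fitted fold changes above 0 (1.33 and 0.60). AMH of Sertoli cells was at 5987 and 7403 CPM against 6000.4 and 6236 CPM, SOX9 at 343 and 274 against 337 and 200.2 CPM, and none of 11 tested Sertoli genes passed in either fit.

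In the depth-matched set, baboon contractile-gene barcodes differed from the rest in 241 of 14990 genes (1.61%), 227 higher (1.51%) and 14 lower (0.0934%), and the 2 baboons lay on the same side. The rest here included the full-rule barcodes that failed on the draw. TPM2 was at 4691 and 3785 CPM against 34.4 and 72 CPM (6.19 ± 0.53, adjusted p = 0.000442) and TPM1 at 1443 and 1181 CPM against 21.8 and 22.4 CPM (5.74 ± 0.43, 0.000329). ACTN1, an actin crosslinker, was at 335 and 362 CPM against 4.02 and 5.63 CPM (6.02 ± 0.41, 0.000329). In all, 18 of 40 tested genes of the other contractile list rose and none fell. The list's median was 2.41, or 2.54 without 2 genes that had no UMI in the set, against -0.71 for all genes. MYOCD, the cofactor of SRF, was at 155 and 96.4 CPM against 1.73 and 0.506 CPM (6.63 ± 0.83, 0.00258). The set's sums held only 77595 and 82949 UMIs in baboon 1 and baboon 2, and 1 UMI is 12.1 CPM in baboon 2. Levels near 100 CPM in this set therefore rest on few UMIs. EDNRA, the receptor through which endothelin contracts smooth muscle, rose as well (219 and 96.4 CPM against 3.71 and 5.08). So did the calcium and potassium channel genes CACNA1C and KCNMA1, and the integrins ITGA7 and ITGA8. The list of contraction signalling genes had a median of 1.425 over 20 tested genes. For 13 tested integrins the median was only 0.079, or 0.901 without 3 that had no UMI in the set. The largest fold changes by the naming rule included the potassium channel gene KCNA5 (206 and 96.4 CPM against 0.283 and 0.184), phospholamban, PLN, a brake on the calcium pump of muscle (361 and 181 CPM against 0.679 and 0.483), and RERGL (735 and 277 CPM against 1.70 and 0.735).

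The same baboon set carried genes of blood-vessel mural cells and less of Sertoli genes. Part of the set had 2 or more pericyte genes at full depth, so its mural levels include barcodes that the full rule sets aside as pericytes. Of 13 tested mural genes 7 rose (ADIRF, EPAS1, ESAM, GJA4, MCAM, NDUFA4L2 and RERGL), with a median of 3.92, or 3.96 without 2 genes that had no UMI in the set. ADIRF was at 5890 and 2845 CPM against 79.2 and 133 CPM. MCAM, an adhesion molecule of vessel walls, was at 941 and 482 CPM against 44.3 and 20.5 CPM (4.29 ± 0.56, adjusted p = 0.00319). INHA, the alpha chain of inhibin from Sertoli cells, was at 64.4 and 145 CPM against 611 and 389 CPM (-2.44 ± 0.49, 0.0412). AMH was at 928 and 2556 CPM against 6011 and 6459.5 CPM (-2.03 ± 0.48, adjusted p = 0.0893) and passed only with the animal as a block, together with SOX9, BEX1, DHH and KRT18. With the block, 703 genes passed (4.69%), 346 higher (2.31%) and 357 lower (2.38%). When barcodes had to meet the rule both at full depth and on 1000 drawn UMIs, a setting chosen after seeing the data that left 34 of the 54, no gene passed edgeR's test (1114 had an unadjusted p under 0.05). The part of pericyte genes and of the smaller set in this was not tested.

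In rhesus, contractile-gene barcodes had higher fitted levels of most contractile genes outside the rule, but none of 12537 genes passed edgeR's unblocked test (0% called, with 240 at an unadjusted p under 0.05 and 26 called by DESeq2). RERGL was at 66.2 CPM in rhesus 1 and 390.1 in rhesus 2, against 18.6 and 29.3 CPM in the rest (3.09 ± 0.75). TPM1 was at 134 and 461 CPM against 63.2 and 55.2 CPM (2.15 ± 0.55), and TPM2 at 217 and 840.4 CPM against 113 and 131 CPM (1.95 ± 0.58). Both animals lay above their other barcodes for each of these, and rhesus 2 by the wider margin. FLNA, filamin A, which ties actin filaments into a net, was more even, at 281 and 472 CPM against 85.1 and 87.0 CPM (1.97 ± 0.33), as was WFDC1, a secreted protease inhibitor-like protein, at 294 and 357 CPM against 79.7 and 67.1 CPM (1.99 ± 0.30). MYOCD was at 7.56 and 40.7 CPM against 0.577 and 0.556 CPM (5.17 ± 0.89). Of 39 tested genes of the other contractile list, 36 had a fold change above 0, with a median of 0.77 against -0.00453 for all genes.

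With the animal as a block 167 rhesus genes passed (1.33%), 85 higher (0.678%) and 82 lower (0.654%). The higher genes included 11 of the 39 contractile genes (ACTN1, CAV1, CSRP1, CSRP2, FLNA, KCNMB1, MYH9, NEXN, TPM1, TPM2 and VCL), MYOCD (4.92, adjusted p = 8.14e-12), the muscle laminin receptor chain ITGA7, the basement membrane collagen COL4A2 and the mural genes MCAM and RERGL (2.68, 5.84e-17). None of the contractile list was lower. Macrophage genes were lower in 7 of 10 tested, among them CD14, CSF1R and C1QB (7.56 and 1.77 CPM against 52.1 and 51.1 CPM), and HBB was at 3.02 and 34.5 CPM against 214 and 1717 CPM. RSPO3 was at 20.8 and 15.9 CPM against 66.8 and 68.9 CPM (block -2.02, adjusted p = 1.2e-08), and IGFBP3 and INHBA, the beta A chain of activin, were lower too. No Sertoli gene passed, with AMH at 3497 and 1357 CPM against 3027 and 2303 CPM. The Leydig gene CYP17A1 was higher.

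Drawing 1000 UMIs widened the rhesus contrasts, where the rest again included the full-rule barcodes that failed on the draw. TPM1 was at 334 and 1047 CPM against 66.7 and 57.8 CPM (3.41 ± 0.54, adjusted p = 0.213), TPM2 at 645 and 1974 CPM against 115 and 134 CPM (3.35 ± 0.52, 0.194), and RERGL at 276 and 1082 CPM against 19.4 and 28.7 CPM (4.79 ± 0.64, 0.124). None of 12244 genes passed edgeR's test without the block (785 had an unadjusted p under 0.05), and 714 did with it (5.83%), 341 higher (2.79%) and 373 lower (3.05%). Of 38 tested contractile genes 27 rose in the blocked fit and none fell, and 37 were above 0. Mural genes rose in 7 of 14 in that fit (ANGPT1, ANGPT2, COX4I2, ESAM, GJA4, MCAM and RERGL) and none fell, with an unblocked median of 1.06. The unblocked median of the contractile list was 1.38, or 1.39 without 1 gene that had no UMI in the set, against -0.09 for all genes. MYOCD (5.72, adjusted p = 8.06e-15), EDNRA and KCNMA1 rose as they did in the baboon set, and so did 11 of 21 interstitial matrix genes, including COL1A1, COL3A1, ELN and BGN, of which FBLN1 and POSTN fell. Sertoli genes fell in 10 of 13, with AMH at 1171 and 389.7 CPM against 3122 and 2291 CPM (block -1.98, adjusted p = 1.11e-18). DHH, the hedgehog ligand sent out by Sertoli cells, was lower (9.60 and 7.50 CPM against 44.5 and 55.4 CPM), while its transcriptional effectors GLI1 (19.2 and 22.5 against 2.68 and 10.8 CPM) and GLI2 (28.8 and 45.0 against 10.8 and 22.3 CPM) were higher (block 1.81, adjusted p = 0.0356, and 1.18, 0.0307). These levels rest on few UMIs, since the set's sums held 416751 and 400258 UMIs and 1 UMI is 2.40 CPM in rhesus 1. The 9 tested hedgehog genes had an unblocked median of 1.175. Of 9 endothelial genes 7 fell, and ESAM, which mural cells share, rose.

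**Figure D3:**
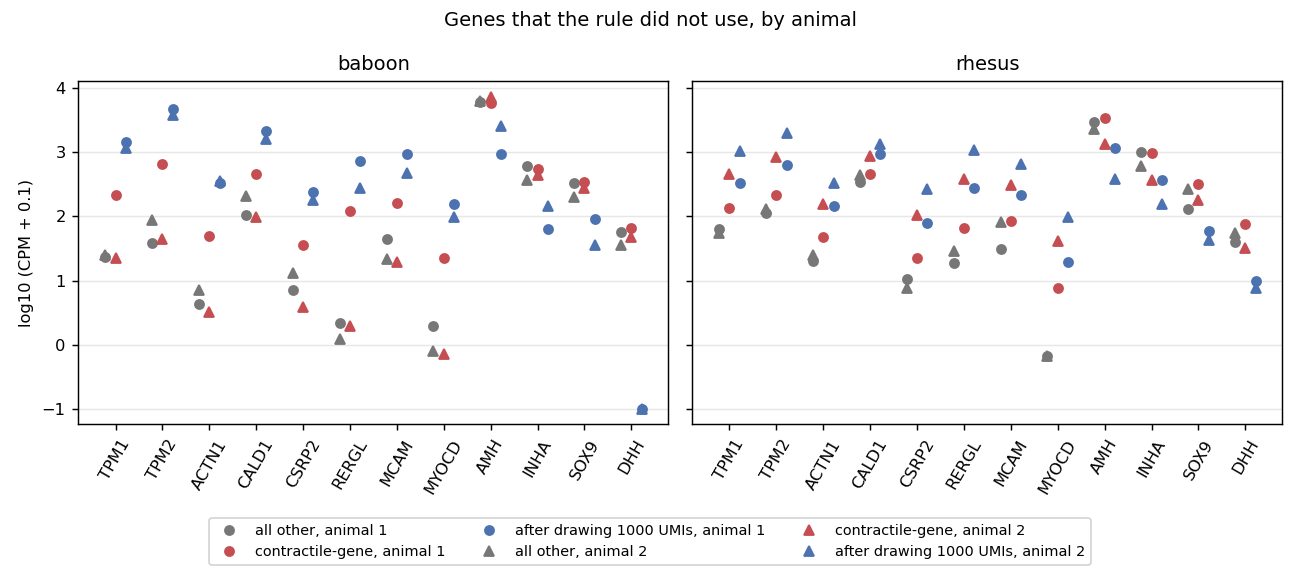
Levels (log10 of CPM + 0.1) of 12 genes in each animal, for contractile-gene barcodes by the full rule, by the rule on 1000 drawn UMIs, and all other barcodes. TPM1, TPM2 and RERGL of baboon 2 lie near its other barcodes by the full rule (22, 45.1 and 1.86 CPM) and far above them on drawn UMIs (1181, 3785 and 277 CPM).

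The nearest neighbours by design were the 323 pericyte barcodes, those with a UMI of 2 or more of the 6 pericyte genes: 57 in 1A, 25 in 1B, 66 in baboon 2, 9 in rhesus 1, 80 in 2A and 86 in 2B. Baboon contractile-gene barcodes differed from them in 574 of 5959 genes (9.63%), 181 higher (3.04%) and 393 lower (6.60%), and with the animal as a block in 1175 (19.7%), 512 higher (8.59%) and 663 lower (11.1%). Of 31 tested genes of the other contractile list none rose and SYNM, a muscle intermediate filament (16.7 and 2.85 CPM against 80.9 and 75.5 CPM, -4.08 ± 0.83, adjusted p = 0.0372), and TGFB1I1 fell, a share near that of all genes, with a list median of -1.02. Mural genes fell in 9 of 13, as with NDUFA4L2 at 8.37 and 0.743 CPM against 246 and 273 CPM, basement membrane genes in 7 of 12, as with COL4A1 at 67.0 and 74.6 CPM against 299.7 and 535 CPM (-2.59 ± 0.36, 0.0157), and endothelial genes in 7 of 10, where EMCN had 0 and 3 UMIs against 168 and 113 CPM. Sertoli genes rose in 6 of 8, with AMH at 5987 and 7403 CPM against 866 and 1313 CPM (2.57 ± 0.36, 0.0155) and SOX9 at 343 and 274 CPM against 71.9 and 40.7 CPM. KRT8, a keratin of epithelia, was at 189.8 and 190.4 CPM against 8.99 and 29.0 CPM (3.27 ± 0.48, 0.0178). On drawn UMIs the pericyte barcodes were chosen anew as well, which left 40 in 1A, 15 in 1B and 38 in baboon 2. With both classes so chosen, none of 1723 genes passed edgeR's test (178 had an unadjusted p under 0.05). By the full rule without the barcodes that held 3 or more genes of another cell type, none of 3827 passed (374 had an unadjusted p under 0.05). With drawn UMIs and the block together, 115 genes passed (6.67%), 41 higher (2.38%) and 74 lower (4.29%), and the direction of the contractile list turned. Both classes had changed by then. Some of the contractile-gene barcodes on drawn UMIs had 2 or more pericyte genes at full depth, so the turn is not one within the same barcodes. Of its 28 tested genes 9 rose and none fell, among them TPM1 (1443 and 1181 CPM against 246 and 343 CPM, block 2.18, adjusted p = 0.00138) and MYL9 (4536 and 3110 CPM against 1199 and 1692 CPM, block 1.41, 0.00465), with an unblocked list median of 0.67. VWF, CLDN5 and EGFL7, genes of the vessel lining, fell, and VWF had no UMI in the 54 barcodes.

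In rhesus the pericyte comparison rested on few barcodes of rhesus 1, and none of 7533 genes passed edgeR's test without the block (0% called, with 607 at an unadjusted p under 0.05 and 43 called by DESeq2). With it 76 passed (1.01%), 27 higher (0.358%) and 49 lower (0.650%). COX4I2, a cytochrome oxidase subunit strong in pericytes, was at 28.0 and 155 CPM in contractile-gene barcodes against 2199 and 5492 CPM (block -5.65, adjusted p = 2.01e-06), and ESAM, GJA4 and PLXDC1 of the mural list fell with it. INSL3 was higher, at 5540 and 854 CPM against 106 and 79.0 CPM (block 4.42, adjusted p = 0.000209), with the rhesus 1 value standing far above the other 3, and DCN, a proteoglycan of stroma, was at 2398 and 1642 CPM against 159.6 and 576 CPM (block 2.55, 0.0205). TPM2 was at 217 and 840.4 CPM against 479 and 486 CPM, so that it was lower in one animal and higher in the other. Pericyte barcodes chosen on drawn UMIs numbered 8 in rhesus 1, 55 in 2A and 63 in 2B. On drawn UMIs with the block 136 of 4380 genes passed (3.11%), 84 higher (1.92%) and 52 lower (1.19%). Of 29 tested contractile genes 7 rose, among them FLNA (501 and 862 CPM against 260 and 68.9 CPM, block 2.53, adjusted p = 0.000457).

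Stroma barcodes, those with 2 or more of DCN, LUM, PDGFRA, TCF21, C7 and IGF1 that met neither other rule, numbered 15260, and these 6 genes were left out of that test too. In baboon 219 of 13124 genes passed (1.67%), 3 higher (0.0229%) and 216 lower (1.65%), and 2917 did with the block (22.2%), 1164 higher (8.87%) and 1753 lower (13.4%). The 3 were NEDD9, a scaffold of focal adhesions (126 and 104 CPM against 26.6 and 33.0 CPM, 1.78 ± 0.28, adjusted p = 0.0468), INHBB, the beta B chain of inhibin and on the Sertoli list (243 and 205 CPM against 57.4 and 69.7 CPM, 1.67 ± 0.26, 0.0468), and ITGA6, a laminin-binding integrin (207 and 182 CPM against 47.1 and 65.1 CPM, 1.64 ± 0.27, 0.0493). All 3 reversed without the barcodes that held genes of another cell type, a filter that uses Sertoli genes, INHBB among them, and so bears on that gene by construction. On a second draw of 1000 UMIs, a setting chosen after seeing the data, all 3 reversed as well, to -0.35, -0.11 and -2.18. None of the 3 did so on the first draw. Among lower genes were 4 of 20 tested interstitial matrix genes and 4 of 18 niche factors, including COL6A1 (39.1 and 17.0 CPM against 413 and 378 CPM, -4.18 ± 0.46, adjusted p = 0.0319), COL14A1, RSPO3 (11.2 and 4.21 CPM against 129.7 and 129.4 CPM, -4.76 ± 0.47, 0.0319), IGF2 (109 and 56.1 CPM against 1038 and 1439 CPM, -4.10 ± 0.45, 0.0319), IGFBP3 and INHBA. The contractile list had a median of 0.58 over 36 tested genes and no call in the unblocked fit, but 12 rose and 6 fell with the block. MYL9, for example, was at 921 and 463 CPM against 307 and 261 CPM (block 1.05, adjusted p = 0.000176).

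On drawn UMIs more contractile genes passed against baboon stroma. The stroma barcodes were chosen on drawn UMIs too, 584 in 1A, 368 in 1B and 2779 in baboon 2. Of 8525 genes 255 passed without the block (2.99%), 185 higher (2.17%) and 70 lower (0.821%), and 540 with it (6.33%), 319 higher (3.74%) and 221 lower (2.59%). A second draw gave 136 without the block, and with barcodes that met the rule both at full depth and on drawn UMIs none of 8326 genes passed edgeR's test (761 had an unadjusted p under 0.05), both settings chosen after seeing the data. Of 35 tested genes of the other contractile list 16 rose and none fell, with a median of 1.92 against -0.17 for all genes. TPM2 was at 4691 and 3785 CPM against 187 and 249.9 CPM (4.20 ± 0.41, adjusted p = 0.00101) and MYL9 at 4536 and 3110 CPM against 290 and 212 CPM (3.84 ± 0.44, 0.00194), so that both animals lay well above their stroma barcodes. PDGFRB, the receptor for platelet-derived growth factor on mural cells, was at 296 and 205 CPM against 56.4 and 61.4 CPM (2.00 ± 0.38, 0.0234), and the Notch target HEYL at 129 and 133 CPM against 18.8 and 18.9 CPM (2.71 ± 0.48, 0.0170). Interstitial matrix genes fell in 6 of 18 and none rose. COL1A1, a chain of type I collagen, was at 232 and 84.4 CPM against 1202 and 1065 CPM (-2.93 ± 0.50, 0.0146), the lower level in each animal.

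In rhesus none of 11462 genes passed edgeR's test against stroma without the block (0% called, with 978 at an unadjusted p under 0.05 and 75 called by DESeq2), and 726 did with it (6.33%), 395 higher (3.45%) and 331 lower (2.89%). Of 37 tested contractile genes 12 rose, among them TPM1 (134 and 461 CPM against 59.6 and 42.1 CPM, block 2.11, adjusted p = 0.0136) and FLNA (281 and 472 CPM against 104 and 74.7 CPM, 1.83, 0.00291), and HSPB6 fell. RERGL (66.2 and 390.1 CPM against 8.47 and 19.2 CPM, block 3.51, 0.000316), MCAM, ESAM and GJA4 rose among mural genes. Sertoli genes rose in 7 of 13, with AMH at 3497 and 1357 CPM against 1145 and 522 CPM. RSPO3 was lower in both species, here at 20.8 and 15.9 CPM against 131.9 and 120.3 CPM (block -2.99, adjusted p = 0.000237), together with FBLN1, IGF2 and IGFBP3. Stroma barcodes chosen on drawn UMIs numbered 3891 in rhesus 1, 2747 in 2A and 2502 in 2B. On drawn UMIs with the block 379 of 10172 genes passed (3.73%), 244 higher (2.40%) and 135 lower (1.33%). Of 36 tested contractile genes 24 rose while none fell.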

How the data were processed

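Testis cell suspensions of 2 baboons and 2 rhesus monkeys were profiled in 6 droplet libraries. The deposited matrices hold raw UMI counts per gene and barcode, which the authors made with Cell Ranger 3.1.0 on Panubis1.0 (baboon) or Mmul_10 (rhesus), per the submitters' processing notes and the published methods. The matrices were not filtered for cells and list no mitochondrial genes, so barcodes were kept from 1000 UMIs with no other filter, and doublets were kept with no caller run. No column of per-sample values was left unused (0).

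The barcodes, gene lists and tests were chosen with earlier results of these data known. Counts were summed per animal and class (libraries 1A with 1B, 2A with 2B), filtered with filterByExpr, scaled with TMM and tested in edgeR 4.0.16 (glmQLFit, glmQLFTest, limma 3.58.1, R 4.3.3) for each species alone, with Benjamini-Hochberg adjustment over all genes tested. The 14 genes of the rule stayed in library sizes and out of the tests, as did the 6 stroma genes against stroma. The sums per class were 358305 and 8079803 UMIs for contractile-gene barcodes of baboon 1 and baboon 2, and 2645450 and 1130395 for rhesus 1 and rhesus 2. The animal pairs the sums, since both classes come from the same testes. Their deviations from the class means correlated at 0.319, 0.452 and 0.461 in baboon and 0.480, 0.132 and 0.576 in rhesus (all other, pericyte and stroma barcodes). Nothing in the labels says that libraries of an animal were separate preparations, so p-values measure only the spread between these samples.

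Named genes were the 12 highest and 8 lowest fold changes against all other barcodes, and 8 in each direction against pericyte and stroma barcodes, among genes with an adjusted p under 0.05, the same direction in both animals and at least 50 CPM in the higher class. Where too few passed, the largest without the p were given as values. Genes of the lists could be named besides. On simulated counts in which 200 genes were given a log2 change of 2, edgeR recovered 14% (16186 genes), 39.5% (5522) and 29.5% (13066) in baboon and 23.5% (12410), 16.5% (7507) and 34% (11080) in rhesus for the comparisons with all other, pericyte and stroma barcodes. Alternatives included DESeq2 1.42.0, no normalization factors, no filter on low counts, libraries as samples, each library left out, other gene numbers and UMI minimums, the rule on 1000 drawn UMIs, and the rule on a random part of the UMIs with values from the remainder. Promoters came from RefSeq on Mmul_10. Some items are not reported here. Other steps used Python 3.11.15 with numpy 2.4.6, scipy 1.17.1 and pandas 2.3.3.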

Additional observations from a re-analysis of the deposited data

Results flagged for a closer look

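MEST stood out because every baboon and every rhesus animal moved in opposite directions between contractile-gene and all other barcodes. Its fitted log2 fold change was -0.87 in baboon, with 53.0 against 65.5 CPM in baboon 1 and 27.5 against 63.1 CPM in baboon 2. In rhesus it was 0.28, with 119 against 116 CPM in rhesus 1 and 479 against 341 CPM in rhesus 2. The difference between the species was not tested, since the 2 species have separate gene tables, and it was found among 64 genes compared. Rhesus 1 lay close to its other barcodes, and without barcodes that held 3 or more genes of another cell type the baboon fold change was 0.60, above 0 as in rhesus.

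Signal of contractile genes was also present in barcodes that no comparison used, those of at least 500 but fewer than 1000 UMIs. At least 3 of the 8 contractile genes had a UMI in 5 such barcodes of 1A, 5 of 1B, 31 of rhesus 1, 19 of 2A and 17 of 2B, each above the count of 3 that marks the floor, while baboon 2 had 3. Their ACTA2 level was 1514 CPM in 1A, 2099 in 1B, 2307 in baboon 2, 2728 in rhesus 1, 3465 in 2A and 4849 in 2B. ACTA2 is a gene of the rule and a single UMI weighs more in a shallow barcode, so these levels are not compared with those of deeper barcodes.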

How the results depend on the processing

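Each species had 2 animals, and in the main edgeR fit rhesus contrasts in which both animals point the same way did not pass without the block. The depth of contractile-gene barcodes differs between animals (18736 UMIs at the median of baboon 2), so the rule picks other barcodes at other depths. Genes near 0 in 1 class have fitted fold changes that depend on the prior count. Leaving out baboon 2 or rhesus 1 leaves 1 animal, so those settings give values with no test. Without normalization factors the median of all genes moved by over 0.1 in 3 comparisons, from -0.0045 to 0.12 against all other rhesus barcodes, from -0.03 to 0.10 against baboon stroma and from -0.03 to 0.18 against rhesus stroma. The causes of the changes below were not tested.

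Against all other baboon barcodes, 1 gene was called. The count was 3 by DESeq2, 206 with the replicate block, 0 with libraries as samples, 0 to 2 without 1 replicate, 11 with at least 4 contractile genes, 241 with the rule on 1000 drawn UMIs, 4 with split counts and 129 without barcodes that held 3 genes of another list. Against baboon pericyte barcodes (574 called) it was 1815 with no filter on low counts, 1175 with the block, 318 without replicate 1 (514 without replicate 2), 63 with at least 4 contractile genes, 0 on drawn UMIs, 55 with split counts and 0 without barcodes of another list. Against baboon stroma (219 called) it was 479 by DESeq2, 70 with no normalization factors, 1296 with no filter, 2917 with the block, 1039 with libraries as samples, 428 to 479 without 1 replicate, 54 with at least 4 contractile genes, 131 at a UMI minimum of 2000 and 24 without barcodes of another list.

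In rhesus 0 genes were called by edgeR in each comparison. DESeq2 called 26, 43 and 75 against all other, pericyte and stroma barcodes, the fit with no filter on low counts 71, 255 and 387, the replicate block 167, 76 and 726, and libraries as samples 9, 130 and 106. Leaving out 1 replicate gave 0 to 1 against pericyte barcodes, with the 1 call without replicate 2, and 29 genes passed against all other barcodes without barcodes of another list.

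Further settings were chosen after seeing the data. With the rule on drawn UMIs and the animal as a block together, 703, 115 and 540 genes passed in baboon (all other, pericyte, stroma) and 714, 136 and 379 in rhesus. A second draw gave 261, 0 and 136 in baboon. With barcodes that met the rule both ways, 0 genes passed in each baboon comparison and 14 against rhesus pericyte barcodes.

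The share of contractile-gene barcodes, 2.05% of baboon and 4.53% of rhesus barcodes, was 10.8% and 14.5% with at least 2 contractile genes, 0.272% and 1.57% with at least 4, 1.61% and 3.13% at a UMI minimum of 500, 3.49% and 9.75% at 2000, and 0.249% and 1.60% on drawn UMIs. It was 2.28% in baboon with pericyte genes not used. The summed level of the 8 contractile genes, a mean of 1629 CPM over the baboon libraries, was 5823 CPM with split counts, from 2504 to 8067 in 1A, 1952 to 8908 in 1B and 432 to 493 in baboon 2.

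Of the named genes under all settings together, 1132 values kept their direction and their side of the threshold, 267 passed newly, 82 no longer passed, 59 moved and 42 reversed. Against all other baboon barcodes, NEDD9 reversed to -0.21 with at least 4 contractile genes, -1.71 on drawn UMIs, -1.71 with the block added, -2.51 on the second draw, -2.04 by both rules and -3.74 without barcodes of another list. CRTC3 reversed to -0.0017, -0.034 with the block, -0.23 by both rules and -0.18 without barcodes of another list, HNRNPUL2 to -0.046, -0.034 with the block, -0.43 on the second draw, -0.22 by both rules and -0.68, and USP36 to -0.22, -0.24 with the block, -0.96 by both rules and -0.46. ZDHHC14 reversed to -0.46 by both rules and -0.42 without barcodes of another list, where PDLIM5 reversed to -0.13, MMP2 to 1.33, MEST to 0.60, SELENOP to 1.15 and SNX7 to 0.77. Against baboon stroma, PDZD2 reversed to -1.26 on drawn UMIs, -1.27 with the block and -1.14 on the second draw, on which NEDD9 reversed to -0.35, INHBB to -0.11, ITGA6 to -2.18, DSP to -1.02 and ERBB3 to -0.35. Without barcodes of another list, a filter that uses the Sertoli gene INHBB itself, NEDD9 reversed to -2.34, INHBB to -2.42, ITGA6 to -10.45, CAMSAP3 to -1.85, DSP to -0.47, PDZD2 to -0.71 and ERBB3 to -9.78 against baboon stroma, and ADGRG1 to -1.90 against rhesus stroma.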
